A study of Homo sapiens with 3 samples.

Results

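Epithelial-mesenchymal transition (EMT) is the switch by which epithelial cells give up their junctions and take on a motile, mesenchymal form, and it is driven by a small number of transcription factors. The 9 genes TWIST1, TWIST2, SNAI1, SNAI2, ZEB1, ZEB2, PRRX1, RUNX1 and RUNX2, which encode such factors or factors of mesenchymal and skeletal lineages, were followed here across the arrays. They were taken by name, and a probe set was used where the array annotation names that gene alone. This holds for 8 of the 9 genes, with 23 probe sets, out of 19775 genes in all. RUNX1 has 13 probe sets, but 0 of them name it alone, so no value is given for RUNX1. mRNA of the human neuroblastoma cell lines IMR-32 and NGP, both untreated and both carrying amplified MYCN, was compared with a reference pool of mRNA from 16 cancer cell lines. Each of the 3 samples was hybridized to 1 Affymetrix U133 Plus 2.0 array, so that each neuroblastoma line is a single culture and no replicate error exists. The expression data were collected to be set beside copy number data of the same lines. NGP was grown in RPMI medium and IMR-32 in Minimum Essential Medium with non-essential amino acids and pyruvate, so line and medium cannot be told apart. The labels do not name the lines that form the pool.

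The SNAI, ZEB and TWIST factors belong to different protein families but share a target sequence, the E-box. SNAI1 (Snail), SNAI2 (Slug), ZEB1 and ZEB2 are zinc finger repressors that shut off E-cadherin and other epithelial genes, TWIST1 and TWIST2 are basic helix-loop-helix factors of the mesoderm, PRRX1 is a homeobox factor of limb and craniofacial mesenchyme, and the RUNX factors carry a Runt domain and act with CBFB. Most of them also act in the neural crest, the embryonic source of neuroblastoma. In neuroblastoma, cells of an adrenergic state express sympathetic transcription factors, whereas cells of a mesenchymal state express factors such as PRRX1.

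The values are MAS5 signals, a measure of hybridization brightness on a linear scale. Array medians over all 54675 probe sets were 89.9 in IMR-32, 98.8 in NGP and 119 in the pool, and a signal below the median of its array is called dim here. Expression ratios are log2 ratios per probe set, and several probe sets of a gene were reduced to their median. The brightest probe set of a gene is the one with the highest mean log2 signal over the 3 arrays, which need not hold the highest single signal. Genes among the highest 7% are called overexpressed, and genes among the lowest 7% underexpressed. These cut-offs lay at 1.68 and -2.83 for IMR-32 over the pool, at 1.84 and -2.88 for NGP over the pool, and at 1.95 and -1.84 for NGP over IMR-32. The median over all genes was -0.23, -0.22 and 0.02 in these comparisons. Probe sets of the same gene differed by a standard deviation of 1.31, 1.41 and 1.28. With 1 array per sample no p-value can be given, and the spread between probe sets is technical. Of the 12 sympathoadrenal markers measured, 6 were overexpressed in IMR-32 and 10 in NGP (7.0% of all genes in each), with PHOX2A at 6553 in IMR-32, 9948 in NGP and 683 in the pool. TH and TFAP2B, defining genes of the adrenergic lineage, were low in IMR-32 (TH 103, TFAP2B 38.6) and high in NGP (TH 4379, TFAP2B 7588), against 271 for TH and 374 for TFAP2B in the pool.

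TWIST1 and ZEB1 were overexpressed in both neuroblastoma lines and SNAI1 in NGP, while SNAI2 was level with the pool and TWIST2, PRRX1 and RUNX2 were dim in both lines. Thus 2 of the 8 measured factors were overexpressed in IMR-32 and 0 underexpressed, beside 7.0% of all genes at each end. In NGP 3 of 8 were overexpressed and 0 underexpressed, beside the same 7.0%. Between the lines, 0 of 8 were over- or underexpressed in NGP relative to IMR-32, where 7.0% of genes lie at each end. The median log2 ratio of the 8 factors relative to the pool was -0.42 in IMR-32 and 0.61 in NGP, and 0.63 for NGP over IMR-32. With the brightest probe set of each gene, or without dim probe sets, the IMR-32 median was 0.11.

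**Figure D1:**
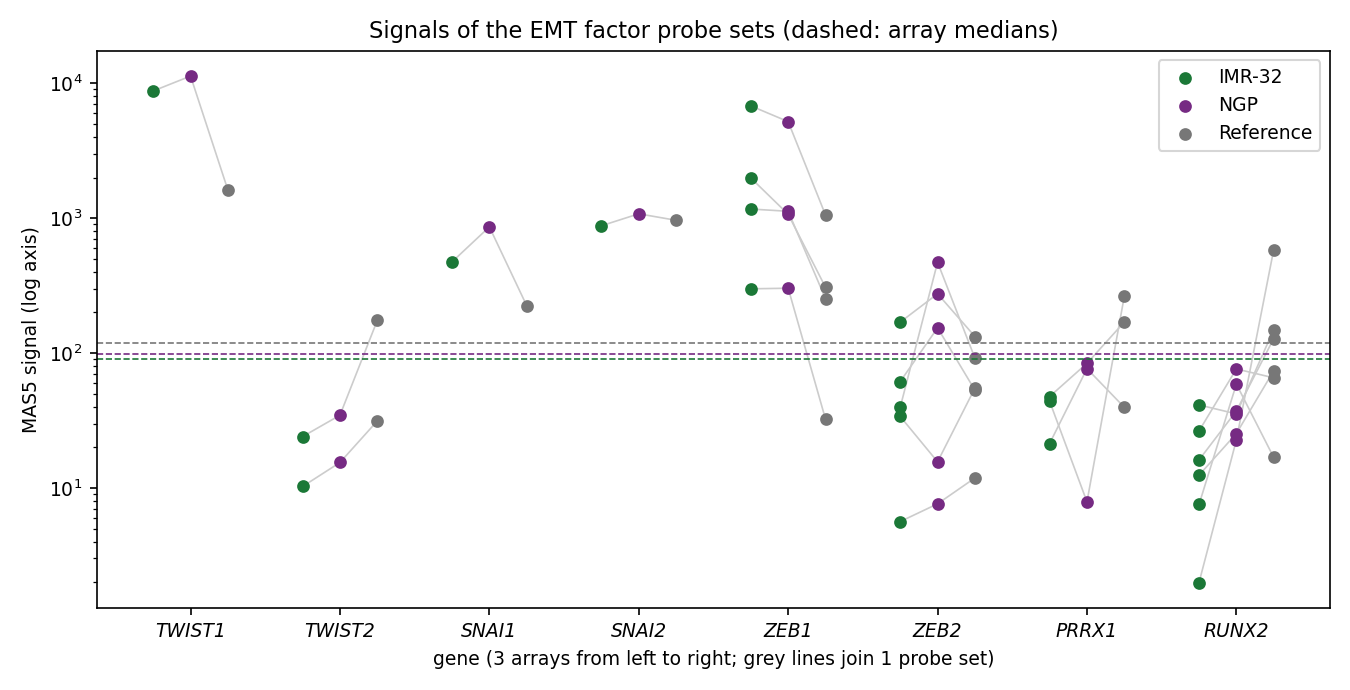
MAS5 signal (y-axis, log scale) of each probe set of the 8 measured factors (x-axis) in IMR-32 (green), NGP (purple) and the reference pool (grey), with grey lines joining a probe set and dashed lines at the array medians of 89.9, 98.8 and 119. TWIST1 and ZEB1 lie above the medians in both lines and higher there than in the pool, while all probe sets of TWIST2, PRRX1 and RUNX2 lie below the medians in both lines.

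TWIST1, which is required for cranial neural crest and mesoderm development, was far brighter in both lines than in the pool. Its single probe set gave 8763 in IMR-32 and 11298 in NGP, against 1614 in the pool. These signals lay high on their arrays, at percentile 98.2 in IMR-32 and 98.6 in NGP, and at 90.0 in the pool. The log2 ratio was 2.44 in IMR-32 (5.43-fold) and 2.81 in NGP, which is at percentile 97.0 of all genes in IMR-32 and 97.4 in NGP. NGP over IMR-32 was 0.37, less than the standard deviation of 1.28 between probe sets of genes with several. That spread is technical and is no replicate error. TWIST1 remained overexpressed in both lines under all 10 alternatives, with ratios between 2.38 and 2.67 in IMR-32 and between 2.72 and 3.03 in NGP. Because TWIST1 has 1 probe set, its ratio has no internal check, and alternatives that select or average probe sets leave the ratio unchanged. Median centring and the wider 10% cut-off cannot remove its call.

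TWIST2, its close relative of dermal and bone mesenchyme, was the opposite. Probe set 229404_at gave 24.0 in IMR-32 and 34.6 in NGP, against 175 in the pool. Probe set 1554163_at gave 10.2 in IMR-32 and 15.4 in NGP, against 31.4 in the pool. Only the first of these was above the array median, and only in the pool. The log2 ratio was -2.24 in IMR-32 and -1.68 in NGP, with a standard deviation between the probe sets of 0.88 in IMR-32 and 0.93 in NGP, and neither passed the lower cut-off. All signals of both lines were dim, which makes these ratios uncertain in size.

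SNAI1 was higher in NGP than in the other samples. Its single probe set gave 474 in IMR-32 and 861 in NGP, against 224 in the pool, so that all 3 arrays lay above their medians. The log2 ratio was 1.08 in IMR-32 (2.11-fold), below the cut-off, and 1.94 in NGP (3.84-fold), just above the cut-off of 1.84. NGP over IMR-32 was 0.86. The NGP call was lost with quantile-normalized arrays (2.08, cut-off 2.09) and with the brightest probe set per gene (cut-off 1.99). The same held with unique probe sets alone, that is with those ending in _s_at or _x_at left out (cut-off 2.05), with cut-offs taken from all probe sets (2.34) and with the top 5% (2.21), so that SNAI1 sits at the border of the call.

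SNAI2, the Slug factor of migrating neural crest, was bright and nearly equal everywhere. It gave 878 in IMR-32 and 1077 in NGP, against 964 in the pool. The log2 ratios of -0.13 in IMR-32 and 0.16 in NGP lay near the middle of all genes, at percentile 53.4 in IMR-32 and 63.3 in NGP. NGP over IMR-32 was 0.29, and the value rests on 1 probe set.

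ZEB1, the zinc finger homeobox repressor of E-cadherin, was higher than in the pool with each of its 4 probe sets in both lines. The brightest, 212764_at, gave 6791 in IMR-32 and 5192 in NGP, against 1055 in the pool. Probe set 210875_s_at gave 1985 in IMR-32 and 1068 in NGP, against 307 in the pool. The dimmer probe sets too were higher in both lines than in the pool. 212758_s_at gave 1168 in IMR-32 and 1124 in NGP, against 252 in the pool, and 239952_at gave 299 in IMR-32 and 302 in NGP, against a dim 32.3 in the pool. The gene's log2 ratio was 2.69 ± 0.41 in IMR-32 (6.45-fold) and 2.23 ± 0.61 in NGP (4.68-fold), where the error is the SD between 4 probe sets. The probe sets lay between 2.21 and 3.21 in IMR-32 and between 1.80 and 3.22 in NGP. Both calls held under the alternatives, with the exception of NGP with cut-offs taken from all probe sets (2.23, cut-off 2.34). NGP over IMR-32 was -0.22, with probe sets between -0.89 and 0.01.

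ZEB1 has 7 start sites in the RefSeq promoter table (GRCh38.p14), of which 2 hold the E-box CAGGTG or its reverse complement CACCTG within 250 bases before to 50 bases after the start. Over all start sites this share was 20.6%, so the letters are common. The window with 3 matches is printed because ZEB1 carries in it the kind of site that the ZEB and SNAI proteins bind, with the matches in capitals.
ZEB1, chr10:31318966-31319265, plus strand: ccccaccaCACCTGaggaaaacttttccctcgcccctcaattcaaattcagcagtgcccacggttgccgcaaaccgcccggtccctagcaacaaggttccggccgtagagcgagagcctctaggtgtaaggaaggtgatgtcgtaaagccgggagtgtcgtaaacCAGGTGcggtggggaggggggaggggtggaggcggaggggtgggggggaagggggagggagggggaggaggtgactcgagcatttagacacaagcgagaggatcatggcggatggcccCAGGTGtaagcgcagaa

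ZEB2, a ZEB factor that is also active in neural crest and in the nervous system, differed between its probe sets. Probe set 203603_s_at, the only one at or above the median of all 3 arrays, gave 169 in IMR-32 and 275 in NGP, against 133 in the pool. Probe set 228333_at gave 39.6 in IMR-32 and 471 in NGP, against 91.7 in the pool, and 235593_at gave 61.4 in IMR-32 and 154 in NGP, against 53.1 in the pool. By these probe sets NGP was the highest of the samples. The remaining pair were dim everywhere, with 33.9 in IMR-32 and 15.6 in NGP, against 55.0 in the pool, for 233031_at, and 5.63 in IMR-32 and 7.62 in NGP, against 11.9 in the pool, for 233033_at. The log2 ratio was -0.70 ± 0.73 in IMR-32 and 1.05 ± 1.69 in NGP (SD between 5 probe sets), and neither was called. In IMR-32 the ratio was 0.35 with 203603_s_at, the brightest by its mean over the arrays, and -1.21 with 228333_at, so its direction depends on the probe set. NGP over IMR-32 was 0.70 ± 1.70, and 3.57 with 228333_at alone. The ratio of NGP stayed above 0 under every alternative (0.45 to 1.53).

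PRRX1, the homeobox factor tied to the mesenchymal state of neuroblastoma, was dim in both lines. Probe set 226695_at gave 43.9 in IMR-32 and 7.89 in NGP, against 264 in the pool. Probe set 205991_s_at gave 47.6 in IMR-32 and 83.9 in NGP, against 170 in the pool, and 238852_at gave 21.3 in IMR-32 and 76.6 in NGP, against 39.6 in the pool. The first pair were above the median in the pool and below it in both lines. The log2 ratio was -1.84 ± 0.85 in IMR-32 and -1.02 ± 3.07 in NGP (SD between 3 probe sets), with neither past the lower cut-off. Without dim probe sets NGP was at -3.04, still short of the cut-off of that setting (-3.35). The probe sets disagreed on the order of the lines, with NGP over IMR-32 between -2.48 and 1.84.

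RUNX2, the master factor of bone formation, was below the array median with each of its 6 probe sets in both lines. Probe set 232231_at gave 1.99 in IMR-32 and 22.7 in NGP, against 584 in the pool, the highest single signal of this gene. Probe set 236858_s_at gave 41.2 in IMR-32 and 35.4 in NGP, against 149 in the pool, and 236859_at gave 16.1 in IMR-32 and 37.2 in NGP, against 128 in the pool. The other 3 probe sets were dim on all arrays, between 7.54 and 76.2. The log2 ratio was -2.21 ± 2.64 in IMR-32 and -1.66 ± 2.20 in NGP (SD between 6 probe sets). RUNX2 became underexpressed in IMR-32 when its probe sets were averaged (-3.01, cut-off -2.82) and with unique probe sets alone (-2.99, cut-off -2.87). NGP over IMR-32 was 1.37 from dim signals, and its probe sets disagreed, with -0.22 for 236858_s_at, the brightest by its mean over the arrays, and 3.51 for 232231_at. With unique probe sets alone it was 2.96 and passed the cut-off of 2.10.

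Of the 2 RUNX2 start sites in the promoter table, the upstream one held 4 matches to the RUNX motif TGTGGT, all as its reverse complement ACCACA, and the other held 0. Of all start sites, 13.1% held this motif, and matches of the motif and of the E-box can overlap by up to 2 letters. The upstream window is printed because its matches are of the family's own motif, shown in capitals.
RUNX2, chr6:45328080-45328379, plus strand: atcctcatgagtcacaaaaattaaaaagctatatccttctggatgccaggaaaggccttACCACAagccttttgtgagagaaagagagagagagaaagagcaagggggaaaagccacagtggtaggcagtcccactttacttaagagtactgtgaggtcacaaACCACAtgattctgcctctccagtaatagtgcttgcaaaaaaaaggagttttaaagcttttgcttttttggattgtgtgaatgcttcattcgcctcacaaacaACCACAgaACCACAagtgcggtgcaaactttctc

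**Figure D2:**
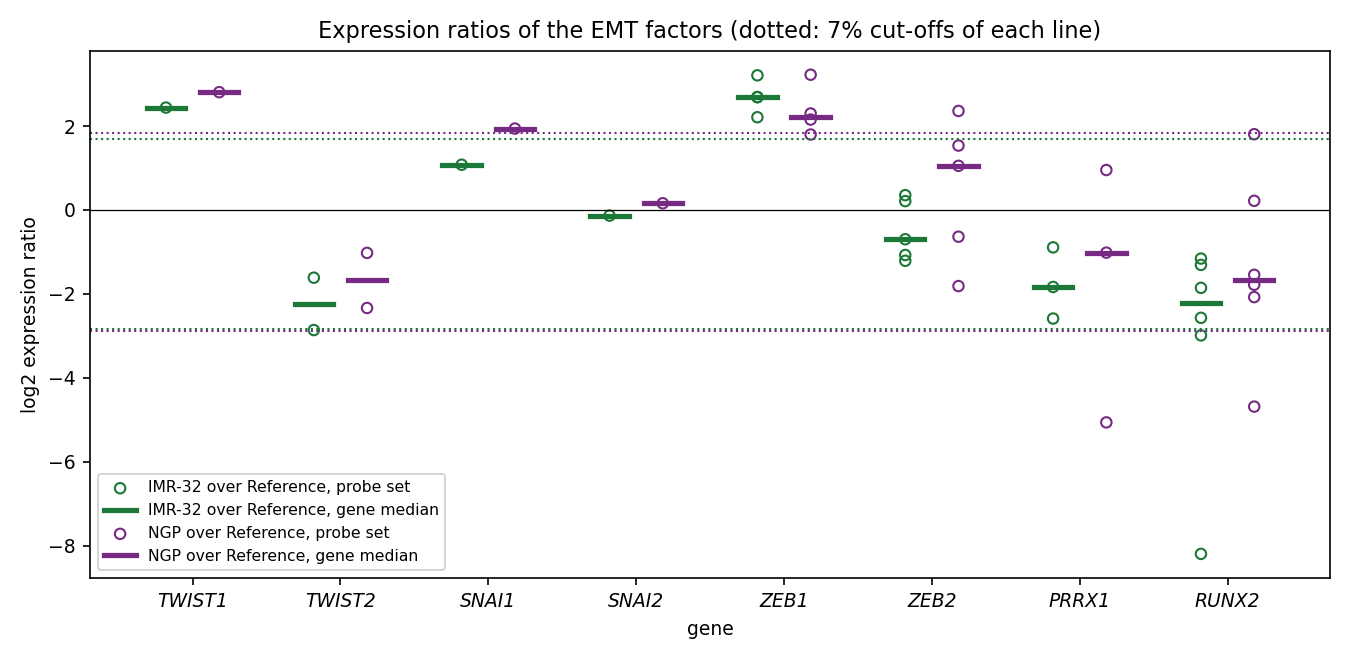
Log2 expression ratio over the reference pool (y-axis) of the 8 measured factors (x-axis) in IMR-32 (green) and NGP (purple), with circles for probe sets, bars for the gene median and dotted lines at the 7% cut-offs of each line (1.68 and -2.83, 1.84 and -2.88). TWIST1 and ZEB1 lie above the upper cut-off in both lines and SNAI1 in NGP, and the widest spread between probe sets is that of RUNX2 and PRRX1.

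The epithelial genes that the SNAI and ZEB factors are known to repress were far lower in both neuroblastoma lines than in the pool. Of 25 measured genes of this list, 17 were underexpressed in IMR-32 and 18 in NGP, beside 7.0% of all genes. In each line 0 were overexpressed, and all 25 ratios were below 0. The median log2 ratio was -5.78 in IMR-32 and -4.74 in NGP, beside -0.23 in IMR-32 and -0.22 in NGP over all genes. CDH1, which encodes E-cadherin, gave with its brightest probe set 27.5 in IMR-32 and 3.32 in NGP, against 6791 in the pool, and the gene's log2 ratio was -6.62 in IMR-32 and -7.80 in NGP. EPCAM, an epithelial adhesion molecule, gave 41.0 in IMR-32 and 17.2 in NGP, against 7157 in the pool. KRT18, a keratin of simple epithelia, gave 98.2 in IMR-32 and 117 in NGP, against 28088 in the pool. ESRP1, a splicing factor of epithelial cells, was at -6.32 in IMR-32 and -5.33 in NGP. GRHL2, a transcription factor that opposes ZEB1, was at -7.63 in IMR-32 and -3.19 in NGP, and GRHL2 passed the upper cut-off for NGP over IMR-32 (4.44), from signals of 132 in NGP and 6.08 in IMR-32. In that comparison CLDN4 was underexpressed (-2.64), and its signals of 6.04 in NGP and 51.5 in IMR-32 were dim in both.

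The pool had high levels of these genes, with a summed signal over the 25 brightest probe sets of 1672 in IMR-32 and 2038 in NGP, against 97974 in the pool. All 25 genes were at or above the array median in the pool, as were 8 in IMR-32 and 8 in NGP, and no signal on the arrays was at 0. In bulk RNA such as that of the pool, fewer cells of a type and less RNA per cell cannot be told apart. The part of the pool's epithelial content in the ratios of TWIST1 and ZEB1 was not tested. With unique probe sets alone, 10 of 18 genes were underexpressed in IMR-32 and 11 of 18 in NGP.

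Among the epithelial genes, 11 have promoters in the table, and 9 of these (81.8%) held at least 1 E-box CAGGTG or CACCTG at some start site. Over all 27305 genes the share was 24.1%, and over the 16 genes with promoters on the mesenchymal list it was 18.8% (3 genes). Other lists lay on both sides of the share of all genes, with 5 of 12 haematopoietic genes (41.7%) the next highest and 0 of 14 other EMT factors and 0 of 7 melanocytic genes the lowest. The list was drawn up as known targets of these repressors, so the share is a description and no independent evidence. The largest number of matches in a window was 5, in CRB3 and at 1 of the 2 start sites of CLDN7, whose windows are printed for that reason with the E-boxes in capitals.
CLDN7, chr17:7262429-7262728, minus strand: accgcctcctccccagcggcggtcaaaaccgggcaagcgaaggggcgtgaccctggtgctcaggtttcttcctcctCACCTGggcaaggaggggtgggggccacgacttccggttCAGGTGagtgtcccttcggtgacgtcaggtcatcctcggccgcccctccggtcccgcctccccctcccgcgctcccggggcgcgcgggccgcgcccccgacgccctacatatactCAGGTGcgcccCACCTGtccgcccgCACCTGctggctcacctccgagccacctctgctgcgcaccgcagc
CRB3, chr19:6464021-6464320, plus strand: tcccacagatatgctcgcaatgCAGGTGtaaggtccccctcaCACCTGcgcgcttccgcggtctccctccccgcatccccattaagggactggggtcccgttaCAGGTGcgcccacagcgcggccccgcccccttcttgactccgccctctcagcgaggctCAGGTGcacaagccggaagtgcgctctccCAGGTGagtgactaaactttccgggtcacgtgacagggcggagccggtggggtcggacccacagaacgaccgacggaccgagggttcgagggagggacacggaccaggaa

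CLDN7, a claudin of epithelial tight junctions, gave 4.41 in IMR-32 and 5.58 in NGP, against 2637 in the pool, and was underexpressed in each line (IMR-32 -9.22, NGP -8.89). CRB3, a polarity protein of the apical membrane, gave 65.1 in IMR-32 and 135 in NGP, against 364 in the pool. Its log2 ratios of -2.48 in IMR-32 and -1.43 in NGP did not pass the cut-offs, so that an equal number of matches went with ratios of different size. Of the genes without a match at any start site, CLDN4 was at -1.88 in IMR-32 and -4.52 in NGP, and KRT8 at -5.78 in IMR-32 and -6.42 in NGP. The 2 probe sets of CLDN4 disagreed in direction in IMR-32, at -4.06 and 0.31.

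**Figure D3:**
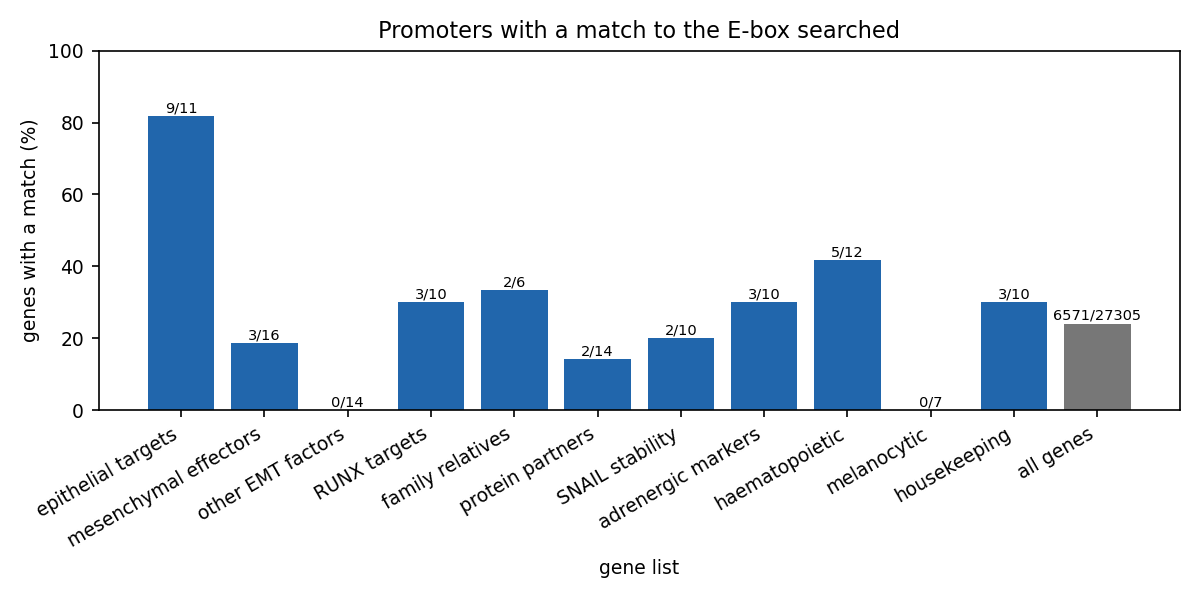
Share of genes with at least 1 match to CAGGTG or CACCTG in the promoter window of any start site (y-axis, percent) for each gene list and for all genes (x-axis), with the number of genes above each bar. The epithelial targets stand at 81.8% (9 of 11), beside 24.1% of all genes.

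Unlike TWIST1 and ZEB1, more mesenchymal effector genes were underexpressed than overexpressed. Of 27 measured genes, 3 were overexpressed and 10 underexpressed in IMR-32, and 2 overexpressed and 10 underexpressed in NGP. Beside this, 7.0% of all genes lie at each end, so the overexpressed counts are near that share. The list medians were -2.22 in IMR-32 and -1.00 in NGP, against -0.23 in IMR-32 and -0.22 in NGP over all genes. The overexpressed genes were cadherins and single surface or matrix genes. CDH2, which encodes N-cadherin of neural and mesenchymal cells, gave 5157 in IMR-32 and 6207 in NGP, against 1418 in the pool, with ratios of 1.88 in IMR-32 and 2.03 in NGP. CDH11, a cadherin of mesenchyme, was at 1.19 in IMR-32 and 3.00 in NGP. In IMR-32, LOX, a collagen crosslinking enzyme, was at 2.67 and THY1 at 1.72, while in NGP LOX was at -0.38 and THY1 at 1.81, short of the cut-offs. VIM, the intermediate filament of mesenchymal cells, was bright on all arrays, with 10999.5 in IMR-32 and 19692 in NGP, against 21584 in the pool, and its ratios of -0.62 in IMR-32 and -0.27 in NGP were not called.

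The underexpressed genes included several collagens. COL1A2 was at -4.91 in IMR-32 and -3.80 in NGP, and COL5A2 at -8.92 in IMR-32 and -4.41 in NGP. TGFBI, a matrix adhesion protein, was at -7.07 in IMR-32 and -7.42 in NGP, and AXL, a receptor kinase of mesenchymal cells, at -3.79 in IMR-32 and -3.96 in NGP. In NGP over IMR-32, COL5A2 (4.51), S100A4 (3.91), LUM (3.30) and COL3A1 (2.61) were overexpressed and COL5A1 (-5.09) and LOX (-2.61) underexpressed. The 4 overexpressed genes were dim in IMR-32 with their brightest probe set (COL5A2 3.53, S100A4 54.3, LUM 9.11 and COL3A1 11.4), so the size of their ratios is uncertain, and the probe sets of COL3A1 lay between -1.80 and 4.51. S100A4, a calcium-binding protein of motile cells, gave 815 in NGP and 54.3 in IMR-32, with 3248 in the pool. Summed over the brightest probe sets the list stood at 25189 in IMR-32 and 42943 in NGP, against 56923 in the pool. With unique probe sets alone, 4 of 20 were underexpressed in IMR-32. With log2(signal + 32), 14 of 27 were. Over all alternatives, between 7 and 10 genes were underexpressed in NGP and between 1 and 3 overexpressed. For NGP over IMR-32, between 2 and 7 were overexpressed and between 2 and 4 underexpressed. MMP2 was at -1.00 in NGP by its median, with probe sets between -2.93 and 2.38. Its brightest probe set gave 3017 in NGP, against 578 in the pool, and passed the cut-off of that setting (1.99).

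Other transcription factors of EMT and of the mesenchymal state of neuroblastoma lay mostly below the pool. The ratios of 17 of 18 measured genes were below 0 in IMR-32, as were those of 15 of 18 in NGP. Of these 18, 4 were underexpressed and 0 overexpressed in IMR-32, and 7 were underexpressed and 1 overexpressed in NGP. This stands beside 7.0% of all genes at each end. The list medians were -1.82 in IMR-32 and -1.97 in NGP. FOSL1, an AP-1 subunit, gave 15.0 in IMR-32 and 24.3 in NGP, against 2275 in the pool (-7.25 in IMR-32 and -6.55 in NGP). WWTR1, the Hippo effector TAZ, was at -5.34 in IMR-32 and -5.53 in NGP. In IMR-32 its probe sets lay between -9.27 and -2.63, and with the brightest (-2.63, cut-off -3.01) WWTR1 was not called. YAP1, its partner, was at -2.21 in IMR-32 and -5.14 in NGP, and was underexpressed in NGP relative to IMR-32 (-2.42). FOXF2 was at -3.26 in IMR-32 and -6.84 in NGP, and FOXC2 at -2.72 in IMR-32 and -3.66 in NGP. The overexpressed gene was GATA6 in NGP (2.22). Its 2 probe sets disagree on IMR-32, at -7.38 and 2.67, and one of them gave 141 in IMR-32 and 140 in NGP, against 22.3 in the pool.

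Among family relatives, PRRX2 was overexpressed in both lines, unlike PRRX1. Its single probe set gave 499 in IMR-32 and 616 in NGP, against a dim 100.4 in the pool, with ratios of 2.31 in IMR-32 and 2.62 in NGP. Of the 9 relatives measured, PRRX2 was the only one called in IMR-32 and the only one overexpressed in NGP. There MSC was underexpressed (-3.62) from dim signals. Over all genes, 7.0% were called at each end. RUNX3 was at -1.47 in IMR-32 and -0.76 in NGP. SNAI3 passed the cut-off for NGP over IMR-32 (2.91) from dim signals of 47.8 in NGP and 6.38 in IMR-32.

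The genes of proteins that work with these factors were bright on all arrays with their brightest probe set. Of 15 partner genes, 2 were overexpressed in IMR-32 and 1 in NGP, and 0 underexpressed in either, beside 7.0% of genes at each end. TCF4, an E protein with which TWIST factors form dimers, gave with its brightest probe set 12935 in IMR-32 and 14806 in NGP, against 1948 in the pool, and was overexpressed in both (2.74 in IMR-32 and 3.19 in NGP, medians of 8 probe sets). The E proteins TCF3 (0.40 in IMR-32 and 0.67 in NGP) and TCF12 (0.72 in IMR-32 and 0.56 in NGP) did not reach the cut-offs by their medians. With the brightest probe set TCF3 was at 1.77 in IMR-32 and 2.12 in NGP, and TCF12 at 2.09 in IMR-32 and 1.15 in NGP. Of these, TCF3 in NGP and TCF12 in IMR-32 passed the cut-offs of that setting (1.99 in NGP and 1.79 in IMR-32). RUNX1T1, a corepressor known as the fusion partner of RUNX1 in leukaemia, was at 3.24 in IMR-32 and 1.54 in NGP, with probe sets between -0.67 and 5.31 in IMR-32. CBFB, the shared subunit of RUNX factors, was at -0.16 in IMR-32 and -0.62 in NGP, and the corepressor CTBP1 was at 0.06 in IMR-32 and -1.00 in NGP. Of 11 genes that act on SNAIL protein stability, 0 were called in IMR-32 and 1 in NGP, beside 7.0% of all genes at each end. The called gene was the kinase LATS2 (-3.88), whose brightest probe set gave 252 in IMR-32 and 5.78 in NGP, against 768 in the pool. The 4 LATS2 probe sets ranged from -7.51 to -0.01 in NGP. LOXL2 was not called by its medians (-2.13 in IMR-32 and -2.42 in NGP). With the brightest probe set LOXL2 was at -3.77 in IMR-32 and -3.73 in NGP, past the cut-offs of that setting (-3.01 in IMR-32 and -3.06 in NGP). Its probe sets reached up to -0.19 in IMR-32 and 0.62 in NGP.

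Targets of RUNX factors in bone and blood cells were mostly dim on all arrays, with 11 of 12 below the array median in IMR-32 and 10 in NGP, against 9 in the pool. Of these 12, 3 were underexpressed in IMR-32 and 2 in NGP and 0 were overexpressed, beside 7.0% of all genes at each end. The median was -1.61 in each line. ITGA2B went the other way, at 0.62 in IMR-32 and 0.31 in NGP, and was not called. Its brightest probe set gave 165 in IMR-32 and 182 in NGP, against a dim 36.9 in the pool. Those ratios, 2.16 in IMR-32 and 2.30 in NGP, passed the cut-offs for brightest probe sets (1.79 in IMR-32 and 1.99 in NGP). MMP13, a collagenase of bone, gave 6.81 in IMR-32 and 6.85 in NGP, against 539 in the pool (-6.31 in IMR-32 and -6.30 in NGP). CD36 was at -5.26 in IMR-32 and -4.76 in NGP. Its 5 probe sets disagreed in direction in IMR-32 (-7.11 to 2.27) and were all below 0 in NGP (-6.44 to -1.71). The bone factor SP7 was dim on all arrays.

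**Figure D4:**
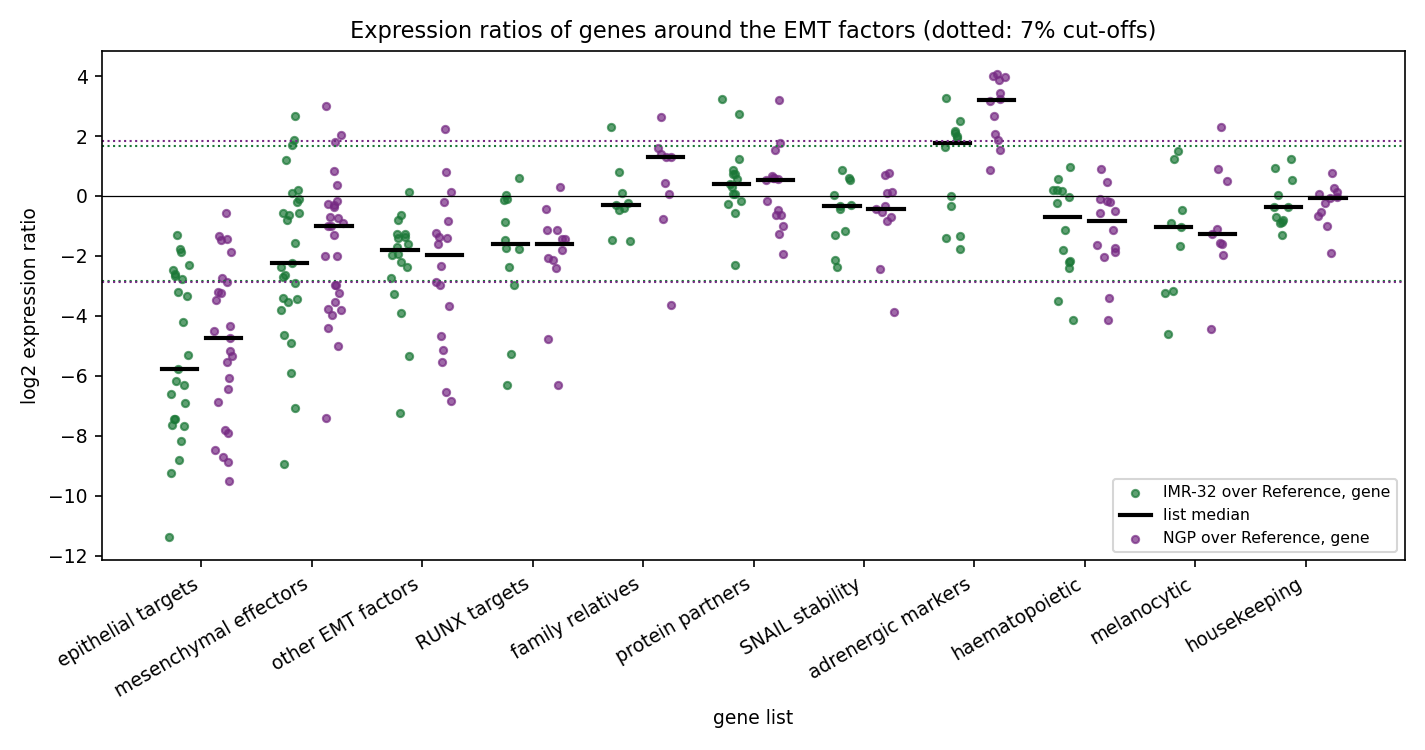
Log2 ratio of cell line over pool (y-axis), 1 point per measured gene, for 11 gene lists (x-axis) in IMR-32 (green) and NGP (purple), with black bars for list medians and dotted lines at the 7% cut-offs. The epithelial targets lie lowest, with medians of -5.78 in IMR-32 and -4.74 in NGP, and the adrenergic markers highest, with medians of 1.78 in IMR-32 and 3.19 in NGP.

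ZEB2 and RUNX factors are also expressed in blood cells and ZEB2 in melanocytes, which cancer lines of the pool could represent. Of 14 haematopoietic markers, 6 were at or above the array median in IMR-32 and 5 in NGP, against 8 in the pool, with summed signals of 1464 in IMR-32 and 1690 in NGP, against 4332 in the pool. PTPRC, the pan-leukocyte marker CD45, was dim on all arrays (28.9 in IMR-32 and 58.7 in NGP, against 25.4 in the pool). Of these markers, 2 were underexpressed in each line, LCP1 and LAPTM5, and 0 overexpressed, beside 7.0% of all genes at each end. With its brightest probe set LCP1 gave 121 in IMR-32 and 203 in NGP, against 2127 in the pool. LAPTM5 gave 11.5 in IMR-32 and 20.7 in NGP, against 171 in the pool. Of 9 melanocytic markers, 3 were at or above the median in IMR-32 and 2 in NGP, against 4 in the pool, with summed signals of 1248 in IMR-32 and 1731 in NGP, against 1303 in the pool. In that list 3 were underexpressed in IMR-32, and in NGP 1 was underexpressed and 1 overexpressed, namely PMEL (2.30), beside the same 7.0%. Their part in the ratios of ZEB2 and RUNX2 was not tested. Of 11 housekeeping genes, 0 were called in either line, beside 7.0% of all genes at each end, with medians of -0.37 in IMR-32 and -0.06 in NGP.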

How the data were processed

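mRNA from untreated IMR-32 and NGP cells and from a pool of 16 cancer cell lines was measured on 1 Affymetrix U133 Plus 2.0 array each. The values deposited by the authors are signal intensities, which they computed by MAS5 in affy, a Bioconductor package (version not given in the sources used here). With the extreme 2% of probe sets at each end left out, the mean signal was 500.0 on each array, and every signal was above 0. MAS5 subtracts mismatch signals, which makes ratios of dim probe sets noisy.

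Control probe sets (62) were left out, and the 41091 probe sets with 1 gene symbol were used. The array annotation names several symbols for 1801 and none for 11721. Of those used, 41037 were matched by gene ID to a table of current symbols. Log2 ratios were computed without a pseudocount and summarised per gene by the median. As in the methods of the study, the top and bottom 7% were called. No test was run, since there is 1 array per sample, and no paired or replicate error exists. The number of arrays limits the precision.

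The members and the 11 gene lists were chosen with earlier results of these data known. All members were named, with the 2 genes most like each member. Of the list genes a selection was named, mostly ones past a cut-off or among the brightest of their list. Not every gene past a cut-off is named. Promoter windows (250 bases before to 50 after a start) and miRNA sequences are from RefSeq, GRCh38.p14. Promoters were found for 6 of the 9 factors. The TWIST1, SNAI1 and SNAI2 promoters are not printed here.

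The 10 alternatives changed the scale (ratios centred on their median, quantile normalization of the arrays, or log2(signal + 32)), the probe sets (dim ones dropped where the higher of both signals was under the median of its array, unique ones alone, the brightest of each gene, or their mean), or the cut-offs (taken from all probe sets, or at 5% or 10%). For the gene lists, and the cut-off alternatives for single factors, they were added after the data had been seen. The ratio and cut-off code was tested on simulated data. Ratios were computed in Python 3.11.15 with pandas 2.3.3 and numpy 2.4.6, trimmed means with SciPy 1.17.1, and plots with matplotlib 3.10.9.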

Additional observations from a re-analysis of the deposited data

Results flagged for a closer look

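Ratios over the pool pointed in opposite directions in the 2 lines for 2 of the factors and for 7 list genes past a cut-off in at least 1 line. The difference was not tested, as there is 1 array per line. For ZEB2 the log2 ratio was 1.05 in NGP and -0.70 in IMR-32, which is 1.75 apart. These medians come from different probe sets, and the median of the ratios of NGP over IMR-32 was 0.70. For SNAI2 the log2 ratio was 0.16 in NGP and -0.13 in IMR-32 (0.29 apart). This is well inside the standard deviation between probe sets of genes with several, which is no replicate error. SNAI2 itself has 1 probe set. Among adrenergic genes, TFAP2B was at 4.07 in NGP and -1.76 in IMR-32 (5.83 apart), TH at 4.01 in NGP and -1.40 in IMR-32 (5.41 apart) and DBH at 2.06 in NGP and -0.33 in IMR-32 (2.39 apart). Among transcription factors, GATA6 was at 2.22 in NGP and -2.36 in IMR-32 (4.57 apart), but its brightest probe set gave 2.66 in NGP and 2.67 in IMR-32. FOXF1 was at 0.12 in NGP and -3.90 in IMR-32 (4.02 apart). COL5A1 was at -5.01 in NGP and 0.12 in IMR-32 (-5.13 apart) and LOX was at -0.38 in NGP and 2.67 in IMR-32 (-3.05 apart).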

How the results depend on the processing

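Of the 60 counts of called factors recomputed under the alternatives, 56 stayed within 1.5 times the reported count. In IMR-32 1 factor, RUNX2, was underexpressed with the mean over probe sets and with unique probe sets alone (1 in each). In NGP over IMR-32 1 factor, again RUNX2, was overexpressed with unique probe sets alone. In NGP 1 factor in place of 3, TWIST1, was overexpressed when cut-offs came from all probe sets. The median of the factors in IMR-32 changed sign to 0.11 without dim probe sets and to 0.11 with the brightest probe sets, and the other 19 medians kept their direction and moved by less than the standard deviation between probe sets. Of the 237 values of single factors, 6 lost a call (SNAI1 in 5 and ZEB1 in 1, all in NGP) and 3 gained one (RUNX2). A further 2 moved by more than the standard deviation between probe sets without a change of call. These were PRRX1 in NGP (-3.04 without dim probe sets) and RUNX2 in NGP over IMR-32. With its brightest probe set the latter changed sign, to -0.22. Of the 240 list counts, 23 moved by over 1.5 times. Median centring shifts all ratios over the pool by 0.23 in IMR-32 and 0.22 in NGP, and, as calls go by rank, cannot change any call, so its 6 counts are equal by construction. No paired analysis was possible because there is 1 array per sample. Of the 23 probe sets, 7 were dim on all arrays and 7 bright on all, and signal over background limits the size of the TWIST2, PRRX1, RUNX2 and, in IMR-32, ZEB2 ratios.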

Other observations

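The microRNAs of the miR-200 family are known to repress ZEB1 and ZEB2 in epithelial cells, and miR-205 acts with them. The array does not measure mature microRNAs, but host transcripts of 2 of these genes have probe sets, which were looked up after the other values had been seen. MIR200CHG, the host gene of miR-200c and miR-141, gave 8.12 in IMR-32 and 49.0 in NGP, against 114 in the pool. MIR205HG gave 19.9 in IMR-32 and 92.2 in NGP, against 91.3 in the pool. Every one of these signals was below the median of its array, also in the pool with its high epithelial genes, and no difference in the host transcripts is read at this brightness. The mature sequences (RefSeq, GRCh38.p14) are given with the seed, bases 2 to 8, in capitals, since the seeds divide the family in 2 groups that differ in a single base.
hsa-miR-200b-3p: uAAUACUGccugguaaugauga
hsa-miR-200c-3p: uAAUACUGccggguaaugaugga
hsa-miR-429: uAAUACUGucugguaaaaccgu
hsa-miR-200a-3p: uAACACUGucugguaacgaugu
hsa-miR-141-3p: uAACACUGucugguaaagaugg
hsa-miR-205-5p: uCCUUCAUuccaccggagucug

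The genes most like each factor were those with the smallest distance in centred log2 signal over the 3 arrays, among 14572 genes with a brightest probe set at or above an array median. With 3 arrays many genes come close to any pattern. For TWIST1 they were PDE2A (distance 0.046) and BOLA3-DT (0.062), and for ZEB1 MCC (0.029) and GLCE (0.047). PDE2A gave 1031 in IMR-32 and 1313 in NGP, against 196 in the pool, and MCC gave 3096 in IMR-32 and 2312 in NGP, against 469 in the pool. For SNAI1 they were NEK2-DT (0.022) and SLCO5A1 (0.051), for SNAI2 SEPTIN9 (0.019) and METTL21EP (0.021), and for ZEB2 RAPGEF2 and STAG3L3 (both 0.027). For the factors that were dim in both lines they were ALDOC (0.042) and IGLC1 (0.078) for TWIST2, TCP11L1 (0.0055) and USP2 (0.027) for PRRX1, and CRYL1 (0.022) and LSAMP-AS1 (0.040) for RUNX2.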
